A study of Mus musculus with 24 samples.

Results

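In forelimb buds of E10.5 mouse embryos, 92 transcripts were lower in Rps6 heterozygotes than in controls, in both messenger RNA and ribosome footprints, as long as Trp53 was present. They are 92 of 21960 transcripts counted. They were chosen from the measured values, as log2 ratios of group mean CPM plus 0.5, where CPM is a transcript's count scaled to the total count of its library. A transcript was taken if its ratio of Rps6 heterozygote to Rps6 wild type was at or below -0.6 in RNA and in footprints in Trp53 wild-type limbs. In Trp53 null limbs the same ratio had to lie within 0.4 of 0 in both kinds of library. The mean in the Rps6 wild-type, Trp53 wild-type group also had to reach 5 CPM in RNA and 2 CPM in footprints, a minimum that 9942 transcripts met.

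Each forelimb pool gave an RNA-seq library and a library of ribosome-protected fragments (RPF, or footprints), with 3 pools per genotype, 12 pools and 24 libraries in all. The control embryos were Rps6lox/+;Trp53+/+ and carried no Cre. The Rps6 heterozygotes were Prx1Cre;Rps6lox/+;Trp53+/+, the Trp53 null embryos Rps6lox/+;Trp53-/-, and the embryos with both changes Prx1Cre;Rps6lox/+;Trp53-/-. So every embryo carried a floxed Rps6 allele, Cre was present only where Rps6 was to be deleted, and the effects of Cre and of the Rps6 deletion cannot be told apart. Prx1Cre is active in limb bud mesenchyme, so other cells of the limb keep both Rps6 alleles, whereas Trp53 is missing from the whole embryo. Each replicate combined 2 samples of 1 genotype, which leaves 3 values per group. Library totals ran from 14291854 to 29104669 counts in RNA and from 7026056 to 16835045 in footprints. The table names transcripts by Ensembl identifier only and no symbol could be paired with any of them, so the members are given by rank, from the most to the least lowered, and only the leading pair by identifier. For the same reason the levels of Rps6 and Trp53 and the markers of limb mesenchyme and other cell types were not checked here.

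The product of Rps6 is a component of the small subunit of the ribosome. Loss of 1 copy of a ribosomal protein gene disturbs ribosome assembly, and free ribosomal proteins and 5S RNA then bind MDM2, the ligase that marks p53 for destruction, so that p53 accumulates. p53, encoded by Trp53, is a transcription factor that mainly activates its direct targets, among them genes of cell cycle arrest and apoptosis, while many transcripts fall indirectly after its activation, often through repressor complexes at cell cycle genes. Footprints are the stretches of mRNA covered by translating ribosomes, and footprints relative to RNA give the translation efficiency (TE).

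The depth of the reduction in Trp53 wild-type limbs was set by the rule and is given as description, without a test. The RNA ratios of the 92 members ran from -1.87 to -0.60 with a median of -0.74, where the median of the 9942 transcripts was -0.04. The footprint ratios ran from -1.71 to -0.60 with a median of -0.81, against -0.06. Put as levels, the median member kept 57.9% of its control RNA and 55.0% of its control footprints. With the ratios cut off at -0.6 by the rule, 10 members had both at or below -1, and 18 had both above -0.7. The summed members made up 0.387% ± 0.0234 (SD, n = 3) of RNA counts in control limbs and 0.221% ± 0.0109 (SD, n = 3) in Rps6 heterozygotes. They made up 0.457% ± 0.0363 (SD, n = 3) and 0.255% ± 0.0140 (SD, n = 3) of footprint counts in the same groups. In limbs without Trp53 the shares were 0.357% ± 0.0201 and 0.358% ± 0.0208 of RNA, with Rps6 wild type and heterozygous in that order, and 0.437% ± 0.00854 and 0.427% ± 0.0246 of footprints (SD, n = 3). In bulk tissue, fewer cells of a type and less RNA per cell cannot be told apart.

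**Figure D1:**
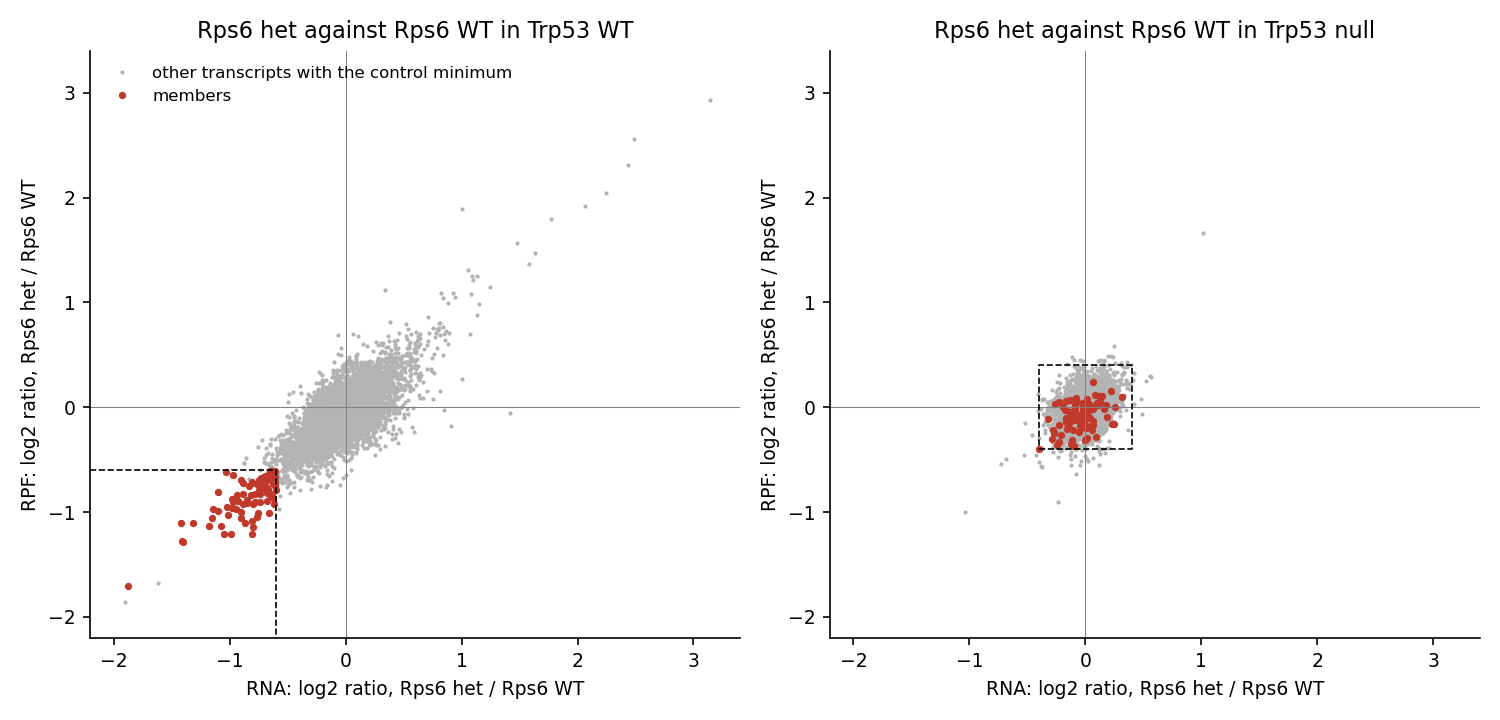
Log2 ratios of Rps6 heterozygote to Rps6 wild type for the 9942 transcripts at or above the minimum level, footprints against RNA, in Trp53 wild-type and Trp53 null limbs; members are coloured and dashed lines mark the limits of the rule. The 92 members lie below -0.6 on both axes with Trp53 present and within 0.4 of 0 without it, positions that the rule itself set.

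The most strongly lowered member was ENSMUST00000030372.5. Its RNA stood at 5.09, 6.40 and 9.96 CPM in the 3 control libraries and at 1.58, 1.40 and 1.78 CPM in Rps6 heterozygotes. In Trp53 null limbs it stood at 5.43, 3.85 and 5.38 CPM with Rps6 wild type and at 4.27, 4.94 and 4.91 CPM with Rps6 heterozygous. The 3 Rps6 heterozygous, Trp53 wild-type libraries lay below the other 9, while the 2 Trp53 null groups overlapped each other. Footprints were at 8.23, 10.51 and 13.1 CPM in control and at 2.56, 3.42 and 2.74 CPM in Rps6 heterozygotes, 10.8, 7.79 and 8.40 CPM in Trp53 null and 8.57, 7.85 and 9.03 CPM in limbs with both changes. The same 3 pools were again the lowest. Its ratios were -1.87 in RNA and -1.71 in footprints, resting on 27 to 37 RNA counts and 24 to 36 footprint counts per Rps6 heterozygous library.

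The next member, ENSMUST00000062202.13, was more abundant. Its RNA was at 24.2, 24.4 and 26.4 CPM in control limbs and at 8.24, 8.07 and 11.1 CPM in Rps6 heterozygotes. Without Trp53 it was at 25.7, 20.2 and 25.7 CPM with Rps6 wild type and at 24.7, 21.3 and 23.2 CPM with Rps6 heterozygous. All 9 libraries other than those of the Rps6 heterozygotes with Trp53 lay above 20 CPM, and those 3 did not pass 11.1 CPM. Footprints were at 17.01, 19.7 and 22.7 CPM in control and at 6.95, 7.12 and 9.36 CPM in Rps6 heterozygotes, 20.3, 17.9 and 19.9 CPM in Trp53 null and 17.7, 16.3 and 18.4 CPM with both changes. The groups separated in the same way, with ratios of -1.40 in RNA and -1.29 in footprints.

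Members differed widely in level. Control RNA ran from 5.04 to 654 CPM with a median of 16.2, and control footprints from 2.28 to 1362 CPM with a median of 14.7. The 4 members with the most footprints held 53.9% of the members' control footprints and 37.4% of their RNA, so the shares of counts given above follow those few transcripts. The most abundant, at rank 77, had 597, 652 and 712 CPM of RNA in control limbs and 418, 408 and 457 CPM in Rps6 heterozygotes. It had 1217, 1373 and 1496 CPM of footprints in control and 806, 809 and 873 CPM in Rps6 heterozygotes. Neither pair of groups overlapped. In Trp53 null limbs its footprints averaged 1251 ± 45.1 CPM with Rps6 wild type and 1298 ± 91.5 CPM with Rps6 heterozygous (SD, n = 3). The second most abundant, at rank 13, fell further: its footprints averaged 676 ± 37.6 CPM in control and 332 ± 12.2 CPM in Rps6 heterozygotes (SD, n = 3). Without Trp53 they averaged 666 ± 6.89 and 628 ± 34.0 CPM (SD, n = 3), with Rps6 wild type and heterozygous in that order.

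**Figure D2:**
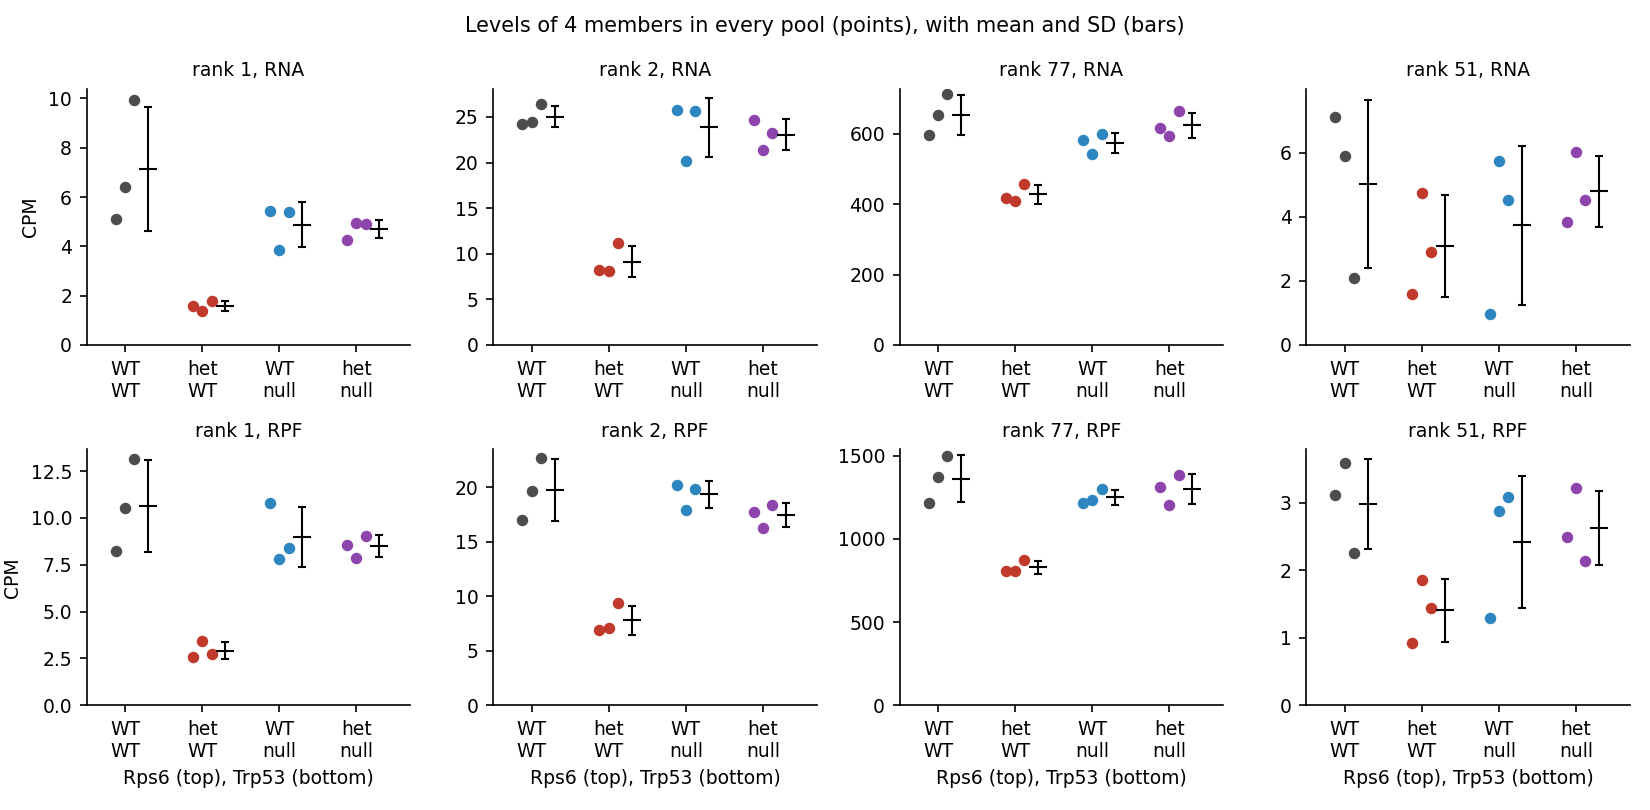
CPM in each pool for the members at ranks 1, 2, 77 and 51, in RNA and footprints, by Rps6 and Trp53 genotype; points are pools and bars are the mean ± SD of 3. In ranks 1, 2 and 77 the Rps6 heterozygotes with Trp53 sit below the control pools, whereas in rank 51 the RNA values of the 2 groups overlap.

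The ratios are given next by abundance, with the limit of the rule bounding them at every level. The 33 members under 10 CPM of control footprints had median ratios of -0.74 in RNA and -0.82 in footprints. The 39 members from 10 to 30 CPM had medians of -0.80 and -0.83, and the 20 members at or above 30 CPM had medians of -0.70 and -0.74. No member had a count of 0 in any library. The lowest count was 21 in RNA and 5 in footprints, and 5 members had a footprint library under 10 counts, so their ratios carry more counting error than those of abundant members.

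Many transcripts lay close to the limits. Just inside the RNA limit were ratios of -0.60 and -0.61, and just outside, among transcripts that met the other limits, were -0.59 and -0.58. The footprint limit passed through a dense stretch, with -0.60 and -0.61 inside and 2 transcripts at -0.60 after rounding (-0.59645 and -0.5952) outside. In Trp53 null limbs a single member, at rank 48, reached -0.40 in both RNA and footprints. The next nearest to the limit in RNA stood at -0.32, and the next nearest in footprints, a different member, at -0.37. Of 95 transcripts that met the level and Trp53 wild-type limits, 3 were left out by the Trp53 null limit. In Trp53 null limbs, their RNA ratios were -1.04, -0.08 and -0.37, and the footprint ratios of the latter 2 were -0.64 and -0.57. For comparison, 27 transcripts passed the limit in RNA alone and 73 in footprints alone. The mirrored rule, with ratios at or above 0.6, took 48 transcripts.

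The rule asked that RNA and footprints pass the same limit, so the closeness of the 2 ratios was set in part by the choice. The footprint ratio less the RNA ratio had a median of -0.02 and ran from -0.40 to 0.41, and the median of the 9942 transcripts was -0.03. It lay within 0.2 of 0 for 74 of 92 members and for 82.5% of the 9942 transcripts. Footprints were lower than RNA by more than 0.3 in 4 members and higher by more than 0.3 in 3. In the edgeR model over both kinds of library, the TE change of the members had a median of -0.02 on the log2 scale, a range from -0.39 to 0.40 and a median standard error of 0.195. That model treated the RNA and footprint libraries of a pool as independent, although their deviations correlated at 0.11 to 0.38. Because RNA and footprints from these pools chose the members, these TE values are a description too.

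Separation between pools was nearly complete, and again was set in large part by the rule. Every library of Rps6 heterozygotes lay below every control library in 91 members in RNA and 91 in footprints, where 31.3% and 30.4% of the 9942 transcripts did so. Against the Rps6 heterozygous, Trp53 null libraries the Trp53 wild-type heterozygotes were lower without overlap in 91 members in RNA and 83 in footprints, against 19.3% and 23.1%. Against the Trp53 null libraries with Rps6 wild type they were lower without overlap in 90 and 89 members, against 19.4% and 29.9%. They were the lowest 3 of all 12 libraries in 90 members in RNA (11.4% of transcripts), 82 in footprints (15.1%) and 81 in both (5.73%).

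Single exceptions broke this order. The member at rank 51 had 7.12, 5.89 and 2.09 CPM of RNA in control limbs and 1.58, 4.76 and 2.89 CPM in Rps6 heterozygotes, and its RNA overlapped between the groups. It varied as widely in Trp53 null limbs with Rps6 wild type, from 0.966 to 5.74 CPM. Its place in the list therefore rests on group means that overlap within their SDs, 5.04 ± 2.62 and 3.08 ± 1.60 CPM (SD, n = 3). At rank 40 the footprints overlapped, at 4.70 ± 1.55 CPM in control and 2.83 ± 0.758 CPM in Rps6 heterozygotes (SD, n = 3).

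The same libraries can be read one by one. Relative to the control mean, their median log2 ratio was -0.76, -0.82 and -0.73 in RNA of the 3 Rps6 heterozygous pools and -0.84, -0.88 and -0.72 in footprints, and all 92 lay below the control mean in each of these libraries. The Trp53 null pools had medians of -0.07, -0.16 and -0.03 in RNA and -0.02, -0.08 and -0.04 in footprints. Pools with both changes had -0.11, -0.22 and -0.07 in RNA and -0.11, -0.24 and -0.11 in footprints. The distance between these groups of libraries was set by the rule, which used all of them.

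The control pools also differed among themselves, and in the same direction in both kinds of library. Member medians against the control mean were -0.10, -0.02 and 0.11 in RNA and -0.10, -0.03 and 0.12 in footprints of control replicates 1, 2 and 3. In control replicate 1, 75 of 92 members lay below the control mean in RNA and 75 in footprints. In control replicate 3 only 12 and 15 did. The control mean entered the rule, which favours transcripts that are high in a control pool. Control replicate 3 also had the most footprint counts of all pools, 16835045. The parts of the choice and of depth in this difference were not tested. Choosing the members without this pool gave 63 transcripts, of which 61 were among the 92.

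**Figure D3:**
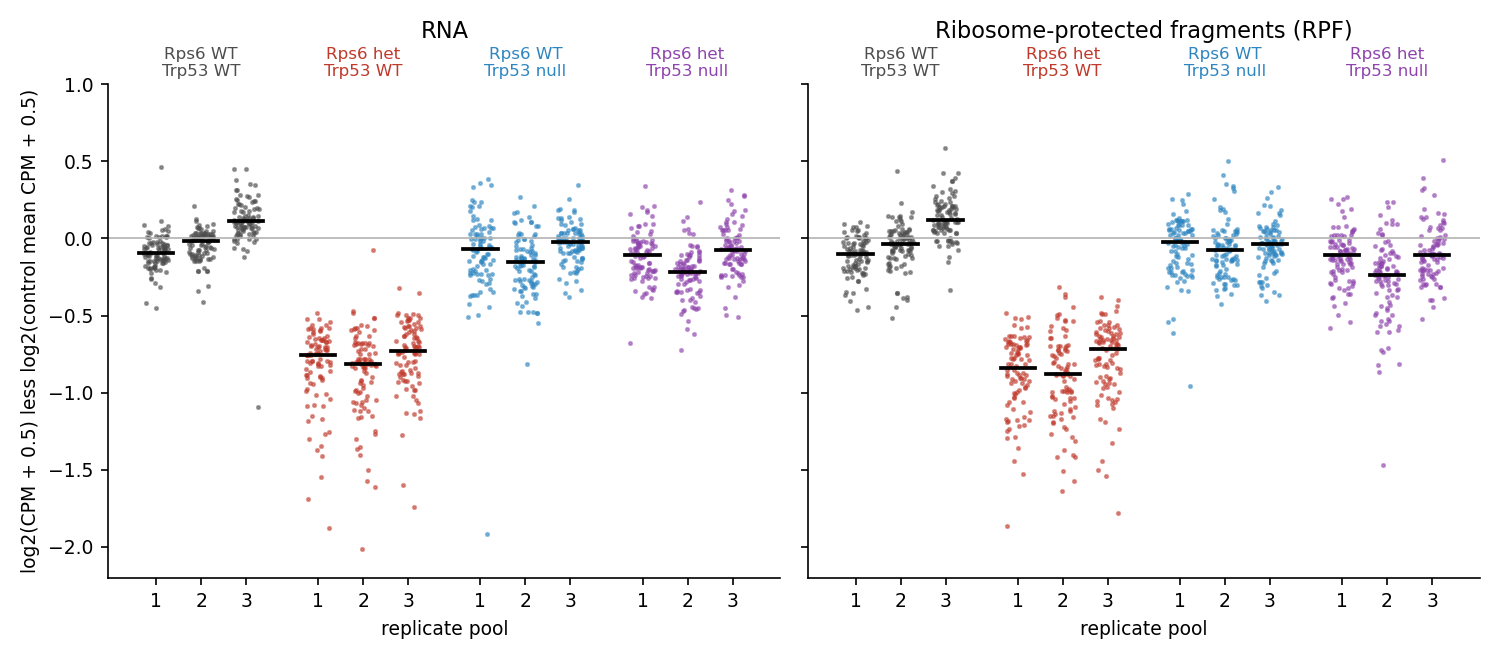
Log2 ratio of each member to the control mean in each of the 24 libraries, RNA and footprints separately, with the median marked; groups are the 4 genotypes and libraries within a group are the 3 replicate pools. Medians run from -0.88 to -0.72 in Rps6 heterozygotes with Trp53 and from -0.24 to 0.12 in all other libraries.

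Members chosen on 2 replicates per group were next read in the replicate that the choice had not used. With replicates 1, 2 and 3 held out in turn, the rule took 88, 80 and 64 transcripts, of which 76, 68 and 55 were among the 92. In the held-out pools their median RNA ratio was -0.64, -0.74 and -0.83 and their median footprint ratio was -0.70, -0.80 and -0.84. The medians over all transcripts were between -0.05 and -0.03 in RNA and between -0.07 and -0.05 in footprints. RNA and footprints were both below 0 in 87 of 88, 73 of 80 and 64 of 64 chosen transcripts, where 47.2%, 42.2% and 46.7% of all transcripts at the minimum level were. Both were at or below -0.6 in 40, 44 and 44, where 0.734%, 0.873% and 1.11% of all transcripts were. Most chosen transcripts were therefore lower in the held-out pools too, although fewer passed the full limit in a single pair of pools. The rule was set with earlier results of all pools known, so this is a description and no independent support.

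In Trp53 null limbs, the held-out median ratio of Rps6 heterozygote to Rps6 wild type was -0.03, -0.07 and -0.05 in RNA and -0.07, -0.20 and -0.04 in footprints. Both ratios lay within 0.4 of 0 in 74 of 88, 50 of 80 and 57 of 64 chosen transcripts, against 96.0%, 93.8% and 95.5% of all transcripts. The lowest of these shares was in replicate 2. The 80 chosen there include 4 transcripts described under the other observations, which are only a part of those that missed the limit. The share of chosen transcripts that met the Trp53 wild-type and null limits in the held-out pools was 37 of 88, 31 of 80 and 39 of 64. These held-out choices overlap in the libraries they used and are not independent of each other.

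**Figure D4:**
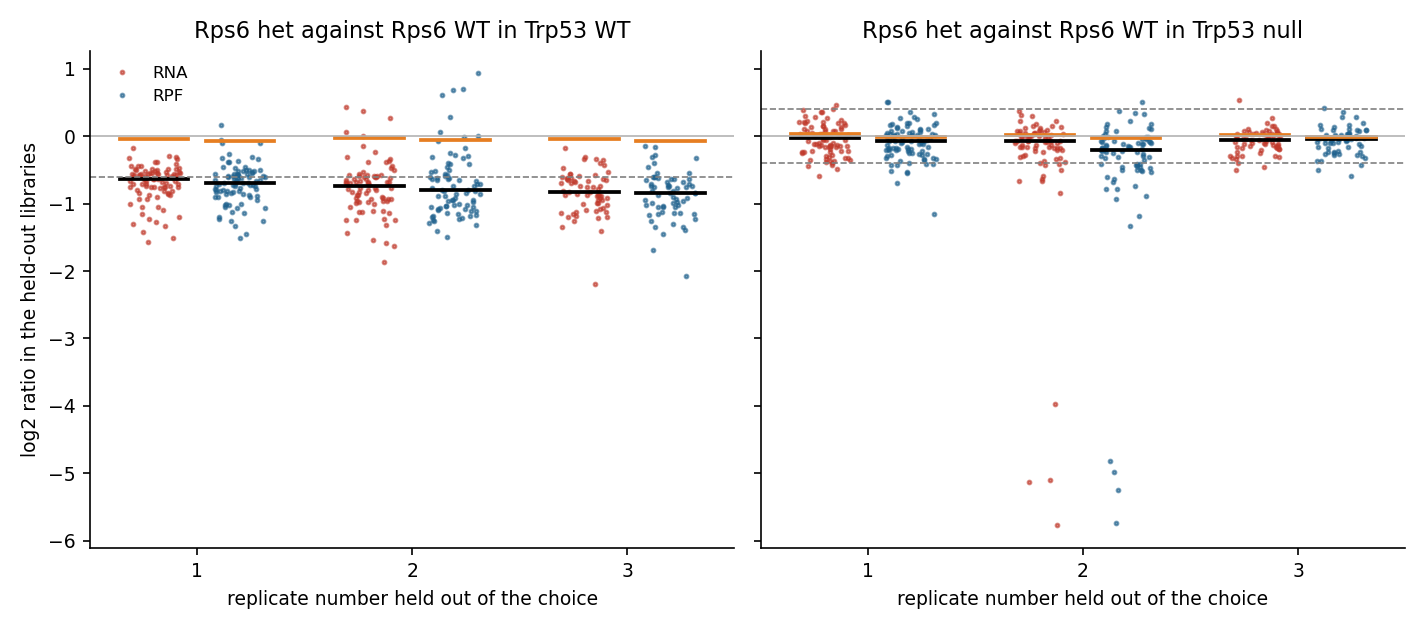
Log2 ratio of Rps6 heterozygote to Rps6 wild type in the replicate left out of the choice, for transcripts chosen on the other replicates, in RNA and footprints and by Trp53 genotype; black bars are medians of the chosen transcripts and orange bars medians of all transcripts. Chosen transcripts have medians from -0.84 to -0.64 with Trp53 present and from -0.20 to -0.03 without it.

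Without Trp53, the members' ratios of Rps6 heterozygote to Rps6 wild type were small but leaned below 0. The RNA median was -0.05, with 56 of 92 below 0, where the median over all transcripts was 0.02 and 41.3% were below 0. The footprint median was -0.09, with 66 of 92 below 0, against -0.01 and 54.7%. Both ratios were within 0.2 of 0 in 62 of 92 members and in 88.4% of transcripts. Both were below 0 in 46 members and above 0 in 16. Among Rps6 heterozygotes, Trp53 null limbs exceeded Trp53 wild-type limbs in all 92 members, by a median of 0.63 in RNA and 0.66 in footprints. These values were part of the rule, or follow from it.

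The effect of Trp53 loss alone was read in limbs with both Rps6 copies. It was tested with edgeR's quasi-likelihood test across all transcripts with Benjamini-Hochberg adjustment at 0.05. The control libraries of this comparison also entered the rule, and the Trp53 null libraries entered through its Trp53 null limit, so it is not free of the choice. Members were chosen in part for high control values, which favours a shift below control. The calls and p-values here therefore cannot settle whether member levels depended on Trp53. Of all transcripts tested, 0.118% were called in RNA (17 of 14411) and 0.0741% in footprints (9 of 12147), and 0.0555% and 0.0247% were called lower. No member was called in either. At an unadjusted p under 0.05 there were 10 members in RNA (10.9% of members, against 14.8% of all transcripts) and 8 in footprints (8.70%, against 4.07%). DESeq2 and limma-voom also called none, with 10 and 11 members in RNA and 3 and 8 in footprints at an unadjusted p under 0.05. The median log2 change of the members was -0.06 in RNA and -0.05 in footprints, against 0.00 for all transcripts, and both became 0.01 without control replicate 3. For TE, edgeR called none of 14080 transcripts (0%), with 1 member (1.09%) and 731 transcripts (5.19%) at an unadjusted p under 0.05, and the members' median TE change was 0.01. This fit treated the RNA and footprint libraries of a pool as independent. With the pool as a block, edgeR again called none. It then had 5 of 92 members and 1172 of 14080 transcripts at an unadjusted p under 0.05. With no filter on low counts edgeR called 12 transcripts, none of them a member. With limma-voom and DESeq2 no member was called for TE either, with 1 at an unadjusted p under 0.05 in each.

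Counted by separation, Trp53 null libraries with Rps6 wild type lay below all control libraries in 7 members in RNA (20.8% of the 9942 transcripts) and above them in 1 (7.71%). In footprints they lay below in 4 (5.22%) and above in 2 (4.14%). For the leading member, ENSMUST00000030372.5, the edgeR log2 change after Trp53 loss alone was -0.51 ± 0.20 (SE) in RNA, adjusted p = 0.281, and -0.25 ± 0.14 (SE) in footprints, adjusted p = 1. Without control replicate 3 its changes were -0.18 ± 0.16 (SE) in RNA and -0.04 ± 0.15 (SE) in footprints. A value that misses the threshold does not show that the member was unchanged.

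Limbs with both changes were also compared with control. The same control libraries serve here as in the other comparisons, and both groups entered the rule. Members were chosen in part for high control values, which favours a shift below control, so the calls and p-values here are no measure of how far the members stood from control levels. In RNA, edgeR called 0.180% of transcripts (26 of 14411), with 0.111% of transcripts lower, and no member. At an unadjusted p under 0.05 there were 20 members (21.7%, against 10.1% of all transcripts). DESeq2 called 1 member and limma-voom none, and edgeR called 2 members without replicate 3 of the limbs with both changes. The members' median log2 change was -0.11, against 0.00 for all transcripts. Pools with both changes lay below all control libraries in 21 members (10.0% of the 9942 transcripts) and above them in none (6.20%).

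In footprints, edgeR called 1.68% of transcripts (204 of 12147), with 0.642% lower (78), and 2 of 92 members were called, both lower. The member at rank 10 averaged 232 ± 7.32 CPM in control and 199 ± 15.5 CPM with both changes (SD, n = 3), a log2 change of -0.20 ± 0.05 (SE), adjusted p = 0.0493 by edgeR. The member at rank 91 averaged 86.5 ± 1.17 and 74.4 ± 0.642 CPM (SD, n = 3), also -0.20 ± 0.05 (SE), adjusted p = 0.0434 by edgeR. As in RNA, both groups entered the rule, so these calls and p-values are no measure of the distance from control. In Rps6 heterozygotes with Trp53, where the rule set the depth, the same members averaged 100.0 ± 8.76 and 55.9 ± 0.605 CPM (SD, n = 3). Neither call held without control replicate 2, without control replicate 3 or without replicate 2 of the limbs with both changes, and 1 member was called without replicate 3 of these limbs. The members' median was -0.14, against -0.00 for all transcripts, and 22 members were at an unadjusted p under 0.05 (23.9%, against 13.7% of all transcripts). Pools with both changes lay below all control libraries in 17 members (11.6%) and above them in none (7.59%).

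The medians moved with control replicate 3, the control pool with the highest member levels. Without it the median change in limbs with both changes was -0.07 in RNA and -0.07 in footprints. For ENSMUST00000030372.5 the edgeR change in these limbs was -0.61 ± 0.19 (SE) in RNA and -0.33 ± 0.15 (SE) in footprints, with an adjusted p of 0.321 in each. Without control replicate 3 its changes were -0.27 ± 0.16 (SE) in RNA and -0.11 ± 0.15 (SE) in footprints. Set directly against Trp53 null limbs with Rps6 wild type, pools with both changes were lower without overlap in 11 members in RNA (5.62% of transcripts) and 13 in footprints (9.98%), and higher in 1 (10.6%) and 2 (7.43%). That contrast is the one the rule limited, so it is given without a test.

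**Figure D5:**
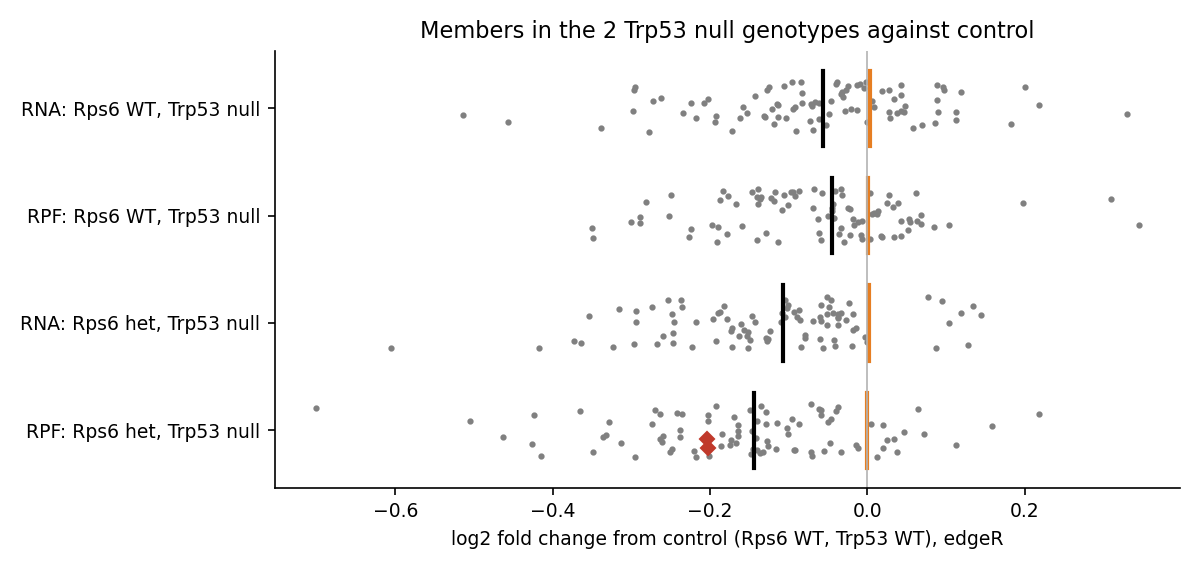
Log2 changes of the 92 members against control in Trp53 null limbs with Rps6 wild type and in Trp53 null limbs with Rps6 heterozygous, in RNA and footprints, from edgeR; black bars are the medians of the members, orange bars the medians of all transcripts, and red diamonds the members called. Member medians are -0.06 and -0.05 with Rps6 wild type and -0.11 and -0.14 with Rps6 heterozygous, and the 2 called members are in footprints of the latter.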

How the data were processed

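Counts per transcript were deposited by the authors for 24 libraries in 1 table. Its name labels the footprint counts as coding sequence and the RNA counts as total, without saying what total covers. Bowtie2, UMI-tools and the builds GRCm38 and mm10 are listed in the submitters' processing notes. Their roles, the annotation release and any filter are not given in the sources used here. CPM was the deposited count divided by the column total. The members, lists and tests were chosen with earlier results of these data known. Changes were fitted with edgeR 4.0.16 (R 4.3.3, TMM scaling, filterByExpr, all 4 genotypes, RNA and footprints separately) using glmQLFit and glmQLFTest, with Benjamini-Hochberg adjustment at 0.05. TE was an interaction term over both kinds of library, with no term for the pool except in the pool block, an alternative. Contrasts that made the rule were fitted without a test. DESeq2 1.42.0 and limma 3.58.1, other filters, scalings, pseudocounts, limits, blocks and leaving out each pool were alternatives. Replicates combine 2 samples each, per the labels' protocols, and p-values measure the spread between these pools. The naming rule took members by the mean of their 2 ratios, plus the most abundant. Without gene names only the leading 2 are identified, and the ranks shown beyond that rule were picked after their values were seen. No identifier matched a reference table, so the gene lists, markers and promoter motifs planned were not run. The fits were run on simulated counts, with changes planted only in well-counted transcripts and larger than the members' median tested changes. That run does not show how small changes or low counts fare.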

Additional observations from a re-analysis of the deposited data

How the results depend on the processing

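The list was sensitive to its limits. Against 92 members, a pseudocount of 2 gave 54, no minimum level 151, a ratio limit of -0.5 gave 149 and one of -0.8 gave 31, while TMM scaling gave 66, all of them among the 92. Leaving out 1 pool gave 63 to 100 members, with 63 without control replicate 3. In limbs with both changes, members called in RNA numbered 0 by edgeR and 1 each with no filter, with DESeq2 and with the replicate block, and 0 to 2 when 1 pool was left out. In footprints they numbered 2, with 7 under no filter and 0 to 3 when 1 pool was left out. Over all transcripts, those called for Trp53 loss in RNA numbered 17, but 252 with no filter, 251 when only the compared groups were fitted, 64 with DESeq2, 47 with the block and 6 to 14 when 1 pool was left out. With no filter the count went from 9 to 48 in footprints and from 0 to 12 in TE. With both changes, RNA calls went from 26 to 70 with no filter, 68 with DESeq2, 47 with the block and 10 to 117 when 1 pool was left out, and footprint calls from 204 to 387 with no filter and 117 to 214 when 1 pool was left out. Replicate numbers were not treated as pairs. Deviations of control pools correlated with same-numbered pools of the other genotypes at -0.002 to 0.10 in RNA and -0.03 to 0.10 in footprints. With different-numbered pools they correlated at -0.13 to 0.06 in RNA and -0.05 to 0.06 in footprints. In RNA most same-numbered values were above 0 and most different-numbered values below 0. A shared effect of replicate number was not tested. With the replicate block, members called were 0 in RNA and 0 in footprints for Trp53 loss, 0 for TE, and 1 in RNA and 3 in footprints for both changes. The members' median change after Trp53 loss alone turned to 0.01 in RNA and in footprints without control replicate 3. The causes of these changes were not tested. Footprint libraries were shallower than RNA libraries, which limits precision most for members with few footprints.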

Other observations

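When replicate 2 was left out of the choice, 4 transcripts that are not members were chosen whose levels were far lower in 2 pools than in the others. Their summed RNA was 2.44 CPM in replicate 1 of the Rps6 heterozygotes with Trp53 and 2.15 CPM in replicate 2 of the limbs with both changes. In the other 10 pools it ran from 101 to 245 CPM. Their summed footprints were 0.102 and 0.503 CPM in the same 2 pools and ran from 67.0 to 175 CPM in the others. In replicate 2, their ratios of Rps6 heterozygote to Rps6 wild type lay above 0 with Trp53. Without Trp53 these ratios ran from -5.77 to -3.97. All 4 are thus among the chosen transcripts that missed the limits in that replicate.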
